A study of Capra hircus with 8 samples.

Results

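The miRNAs described here are those named miR-23, miR-24 and miR-27 in a small RNA table of goat mammary gland cells: chi-miR-23a, chi-miR-23b-3p, chi-miR-23b-5p, chi-miR-24-3p, chi-miR-27a-3p and chi-miR-27b-3p, given from here on without the prefix for goat. They were taken by name, 6 of the 361 known goat miRNA names in the table, and each name stood in a mature and a hairpin entry (12 entries of 5093). The libraries came from cells of Lanshan dairy goats in 3D culture. There were 8 libraries in 4 groups of 2: a control called 3NC, a control called 5NC, cells transfected with virus carrying circRNA28250 (overexpression), and cells in which circRNA28250 was inhibited (knockdown). Overexpression was compared with 5NC and knockdown with 3NC, following the order in which the series text names them. The labels say neither what the control constructs are nor whether a group's libraries are from separate cultures. The p-values therefore measure library-to-library spread that may be technical. No measurement of circRNA28250 was used here, so nothing checks the group labels. Sample names of the knockdown libraries carry the letters "mix", whose meaning is not given.

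MiRNAs are short RNAs cut from hairpin precursors. One arm of the hairpin, the guide, is usually kept and pairs with messenger RNAs through its seed, the bases near its 5′ end, while the other arm, the passenger, is mostly degraded. In mammals miR-23, miR-27 and miR-24 are made from paired clusters, one with miR-23a and miR-27a and one with miR-23b and miR-27b, and the same mature miR-24-3p can come from either. The RefSeq gene table of the goat (assembly ARS1.2) lists MIR23A next to MIR27A, and MIR23B, MIR27B and MIR24 side by side, followed by the protein-coding gene FANCC. MiR-23a and miR-23b-3p share a seed and are nearly identical along their length, as are miR-27a-3p and miR-27b-3p, so the split of reads within either pair depends on how the authors assigned them, which is not given in the sources used here. In goat mammary epithelial cells miR-27a is known to lower triglyceride synthesis, with the adipogenic receptor PPARG among its targets, and miR-24 is known to act on fatty acid synthase. MiR-23a and miR-23b are known in human cells to repress mitochondrial glutaminase.

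The libraries held 6588354 to 32066029 reads in total, of which 122435 to 5039336 were assigned to miRNAs. MiRNAs took 20.3% to 39.5% of reads in the controls and the first overexpression library, but 5.80% in the second overexpression library and 2.69% and 0.382% in the knockdown libraries. Ribosomal RNA took 27.3% of reads in the first knockdown library and 1.14% to 5.21% in the others. Entries classed as piRNA, another small RNA class, took 43.9% in the second knockdown library and 0.0463% to 0.545% in the others. The part of these classes in the results below was not tested. The second overexpression library and both knockdown libraries also held more of the endothelial miRNAs miR-126-3p and miR-126-5p, which summed to 6469 to 10437 CPM there and 210.4 to 709.8 CPM elsewhere. The sum of 4 matched blood miRNAs was also higher in these libraries (5567 to 7828 against 768.9 to 2963 CPM), with miR-451-5p the largest part (3155 to 6216 CPM). MiR-223-3p did not follow throughout: it stood at 21.6 CPM in the second overexpression library and at 27.5 CPM in the first 3NC library. CPM is a read count scaled to 1000000 miRNA reads after a TMM factor, which centres the bulk of miRNAs between libraries. Epithelial miRNAs, of which 8 of 9 listed names were matched, summed to 14307 CPM in the first 5NC library and to 155.8 to 1352 CPM in the others. In that first 5NC library miR-183, miR-182 and miR-96 stood at 10866, 3179 and 202 CPM. MiR-200a, miR-200b, miR-200c, miR-141 and miR-429 stood at 3.09, 8.25, 43.1, 0.774 and 5.41 CPM there, each below both knockdown libraries. Mesenchymal ones (4 of 5 matched) summed to 370.0 CPM in the first 5NC library and to 4927 to 39041 CPM elsewhere. Muscle ones (4 of 4) summed to 20721 CPM in the second knockdown library and to 169.4 to 3611 CPM elsewhere. Across these lists at most 1 marker was at 0 in a library: miR-141 in the second 3NC and miR-200a in the first overexpression library among the epithelial ones, and miR-144-3p in the first 3NC and the first 5NC library among the blood ones. Marker levels and miRNA depth move with several results below, and their part in them was not tested. In these bulk libraries fewer cells of a type and less of an RNA per cell cannot be told apart.

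All 6 miRNAs were among the 402 that passed a filter on low counts, and the guide arms had at least 510 reads in every library. Together the 6 made up 3.92% to 7.56% of reads assigned to known miRNAs. The highest share was in the first knockdown library (7.56%, exact 95% binomial interval 7.43% to 7.69%) and the lowest in the second 5NC library (3.92%, 3.89% to 3.94%). MiR-23b-3p ranked from 8 to 16 among the known miRNAs in the controls and with overexpression, and at 27 and 30 with knockdown. MiR-23a held ranks 9 to 19 in all 8 libraries. The passenger arm miR-23b-5p ranked between 47 and 90 outside the knockdown group and at 132 and 182 within it.

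**Figure D1:**
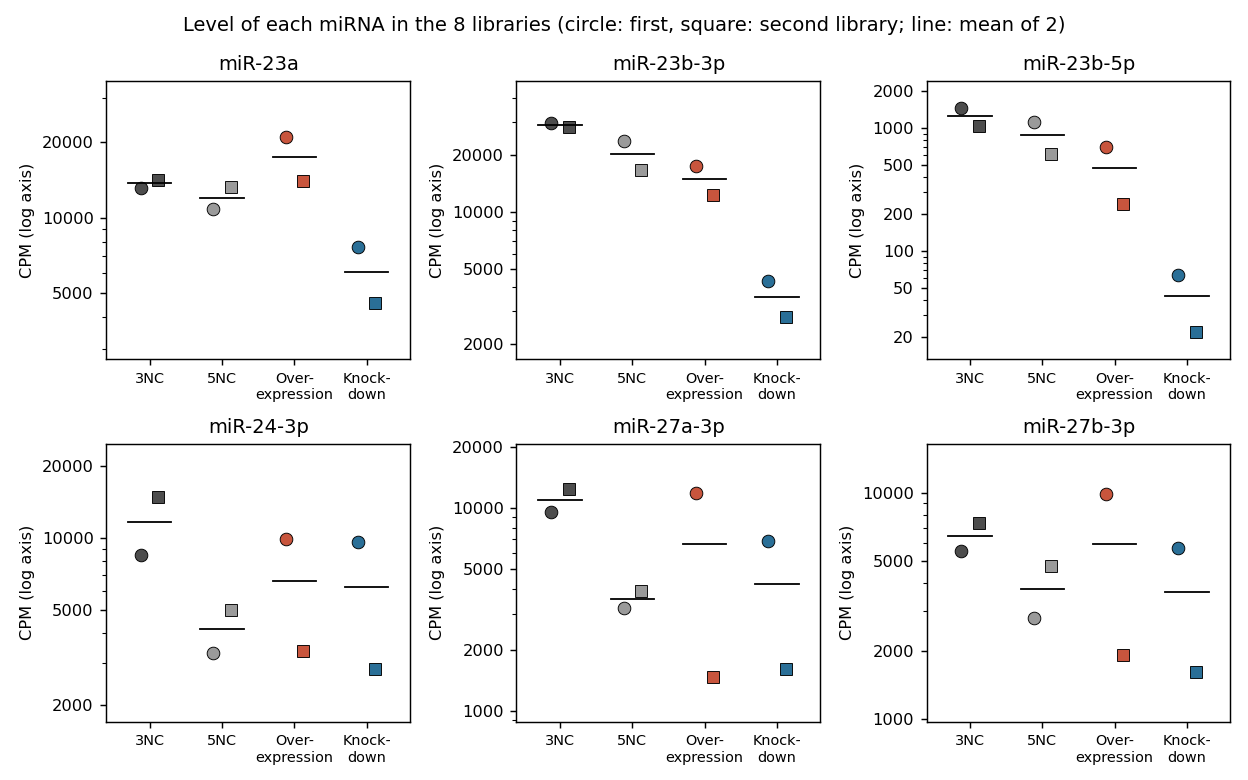
Level of each of the 6 miRNAs in CPM (log axis) in the 8 libraries, by group, with the first library of a group as a circle, the second as a square and the mean of the 2 as a line. MiR-23b-3p and miR-23b-5p lie lowest in the knockdown libraries (2775 and 4288 CPM, 22 and 64.3 CPM), while miR-24-3p, miR-27a-3p and miR-27b-3p differ widely between the libraries of the overexpression and of the knockdown group.

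Among the guide arms, miR-23b-3p was highest in 3NC and lowest with knockdown. It stood at 29544 and 28139 CPM in 3NC, at 23576 and 16713 CPM in 5NC, at 17513 and 12304 CPM with overexpression, and at 4288 and 2775 CPM with knockdown. Both knockdown libraries lay below all 6 others, the 3NC libraries lay above all others, and 5NC and overexpression overlapped. Libraries of a group differed by at most 1.55-fold for this miRNA, a smaller gap than that between knockdown and any other group.

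Its sister miR-23a, made from the other cluster, had a narrower range. Its level was 13173 and 14194 CPM in 3NC, 10803 and 13208 CPM in 5NC, 21041 and 13946 CPM with overexpression, and 7632 and 4548 CPM with knockdown. The 2 controls overlapped, both knockdown libraries lay below every other library, and both overexpression libraries lay above 5NC, but the second lay within the range of 3NC. Its whole range over the 8 libraries was 4.63-fold, against 10.6-fold for miR-23b-3p. The low place of knockdown was not particular to TMM, but it did not hold under every scaling. The log2 fold change of miR-23a against 3NC was −1.17 with TMM and −0.95 with another scaling (RLE). Scaled to every named small RNA it was −3.09. Scaled to plain miRNA totals it was 0.48, still below the median of 1.40 over the 402 tested miRNAs. As a share of known miRNA reads, miR-23a held 1.13% and 1.27% in 3NC, and 1.69% and 1.46% with knockdown.

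The passenger arm miR-23b-5p had the widest range of the 6, 65.6-fold. Its level was 1443 and 1035 CPM in 3NC, 1122 and 614 CPM in 5NC, 705 and 240 CPM with overexpression, and 64.3 and 22 CPM with knockdown. The knockdown values rest on 22 and 7 reads, against 111 to 4353 reads in the other libraries, so they are the least precise of the set. They lay below all other libraries, and the other 3 groups overlapped one another, apart from overexpression and 3NC.

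MiR-24-3p, miR-27a-3p and miR-27b-3p followed another order. MiR-27a-3p stood at 9560 and 12402 CPM in 3NC, 3225 and 3915 CPM in 5NC, 11856 and 1476 CPM with overexpression, and 6838 and 1603 CPM with knockdown. The first overexpression library thus reached the 3NC range and the second lay below every control, an 8.03-fold gap within one group. In the knockdown group the gap was 4.27-fold, whereas the control groups differed by at most 1.30-fold inside a group.

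MiR-27b-3p also spread widely within the overexpression and knockdown groups. Its values were 5545 and 7348 CPM in 3NC, 2784 and 4727 CPM in 5NC, 9928 and 1906 CPM with overexpression, and 5681 and 1615 CPM with knockdown. The second overexpression and the second knockdown library were the lowest of the 8, and the first overexpression library the highest. The overexpression and knockdown groups each spanned the whole range of 5NC.

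In mammals miR-24-3p can come from either cluster, while the goat annotation lists MIR24 beside MIR27B only. MiR-24-3p stood at 8511 and 14816 CPM in 3NC and at 3298 and 4994 CPM in 5NC. With overexpression it stood at 9846 and 3378 CPM, and with knockdown at 9624 and 2841 CPM. Only the controls were separated from each other, with both 5NC libraries below both 3NC libraries. Gaps inside the overexpression and knockdown groups were 2.91-fold and 3.39-fold.

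The first comparison set the knockdown libraries beside 3NC. All 6 members lay lower there (52.7% of all tested miRNAs did), and 4 of them without overlap between the groups (miR-23a, miR-23b-3p, miR-23b-5p and miR-27a-3p), where 32.3% of all tested miRNAs lay lower without overlap. MiR-23b-3p averaged 3532 ± 1070 CPM after knockdown, beside 28842 ± 994 CPM for 3NC (SD, n = 2 each), a log2 fold change of −3.03 ± 0.77 (SE). Its unadjusted edgeR p was 0.0045, which ranked 2 of the 402, and its Benjamini-Hochberg adjusted edgeR p was 0.43. MiR-23b-5p had 43.1 ± 29.9 against 1239 ± 289 CPM, a log2 fold change of −4.84 ± 1.29 with the same adjusted edgeR p. Neither passed the edgeR threshold of 0.05, and of all 402 miRNAs the test called 0 (0%), with 44 (10.9%) at an unadjusted p under 0.05. These 2 members were among the 6.47% of miRNAs that lay lower at that unadjusted level. DESeq2, which called 6.22% of all miRNAs and 2.24% as lower, called both miR-23b arms and no other member (DESeq2 adjusted p = 0.0201 for the 3p arm and adjusted p = 0.000895 for the 5p arm).

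The same knockdown libraries had the lowest miRNA shares and the highest endothelial sums of the 8 (9300 and 10437 CPM), and the part of either in these values was not tested. The remaining 4 members passed neither test. Log2 fold changes were −1.17 ± 0.73 for miR-23a, −1.38 ± 1.15 for miR-27a-3p, −0.90 ± 0.95 for miR-24-3p and −0.82 ± 1.05 for miR-27b-3p (SE), with adjusted edgeR p of 0.52 to 0.70. Leaving out 1 knockdown library moved most of these. Without the first, miR-27a-3p was −2.42, miR-24-3p −1.70 and miR-27b-3p −1.64, and without the second they were −0.73, −0.33 and −0.23. The median of the 6 was −1.27, beside −0.13 over all 402 miRNAs. The direction of these 4 depends on the scaling: with plain miRNA totals in place of TMM they became 0.48, 0.20, 0.70 and 0.77, but the median of all miRNAs was then 1.40, and each of the 4 still lay below it. The 2 miR-23b arms kept a negative log2 fold change under every scaling run, −1.37 to −4.98 for the 3p arm and −3.26 to −6.58 for the 5p arm.

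**Figure D2:**
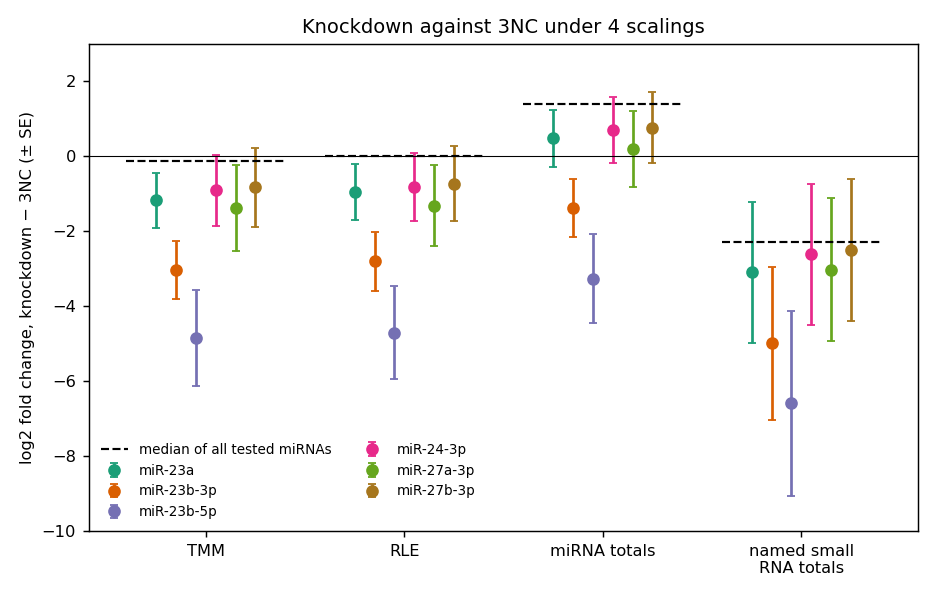
Log2 fold change of the 6 miRNAs in knockdown against 3NC, with SE bars, under 4 ways of scaling the libraries, and the median over the 402 tested miRNAs as a dashed line. The miR-23b arms lie below that median under all 4 scalings, whereas miR-23a, miR-24-3p, miR-27a-3p and miR-27b-3p change sign with plain miRNA totals (0.48, 0.70, 0.20 and 0.77).

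The second comparison set the overexpression libraries beside 5NC. There 4 members lay higher (52.7% of all miRNAs did) and the miR-23b arms lower, but 0 of the 6 passed either test. Over all miRNAs edgeR called 0 (0%), with 33 (8.21%) at an unadjusted p under 0.05, and DESeq2 called 27 (6.72%). MiR-23a was the one member whose groups did not overlap. It averaged 17494 ± 5017 CPM after overexpression, beside 12005 ± 1701 CPM for 5NC (SD, n = 2 each), a log2 fold change of 0.54 ± 0.73 (SE) with an adjusted edgeR p of 0.88. Groups lay apart in the higher direction for 12.4% of all miRNAs. MiR-23b-3p averaged 14908 ± 3683 against 20144 ± 4853 CPM (−0.43 ± 0.71) and miR-23b-5p 473 ± 329 against 868 ± 359 CPM (−0.88 ± 1.10). The values of miR-24-3p, miR-27a-3p and miR-27b-3p were 0.67 ± 0.95, 0.90 ± 1.14 and 0.66 ± 1.05, and they rest on the first overexpression library: without it they were −0.30, −1.27 and −0.98.

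**Figure D3:**
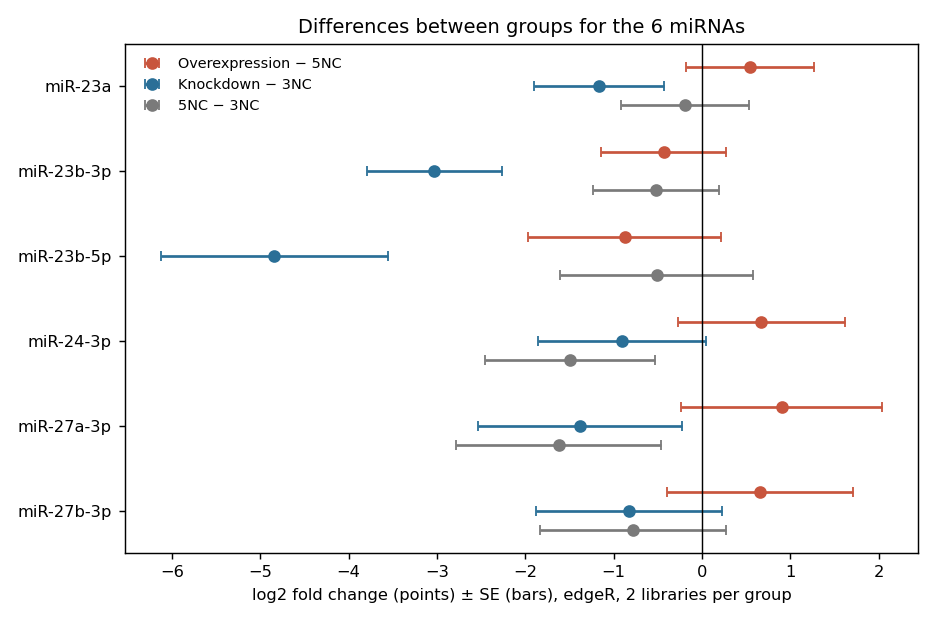
Log2 fold change (points) with SE (bars) of the 6 miRNAs for overexpression against 5NC, knockdown against 3NC and 5NC against 3NC, from an edgeR fit of all 8 libraries with 2 per group. MiR-23b-3p (−3.03) and miR-23b-5p (−4.84) in knockdown lie farthest from 0, and none of the values passed the adjusted test.

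The controls were also set beside each other, since each treated group has its own. All 6 members were lower in 5NC than in 3NC (55% of all miRNAs were), and 4 without overlap (miR-23b-3p, miR-24-3p, miR-27a-3p and miR-27b-3p), where 29.9% of all miRNAs lay lower without overlap. MiR-27a-3p had 3570 ± 488 CPM in 5NC and 10981 ± 2009 CPM in 3NC (log2 fold change −1.62 ± 1.16), and miR-24-3p 4146 ± 1199 against 11663 ± 4458 CPM (−1.49 ± 0.96), with an adjusted edgeR p of 0.75 for both. Over all miRNAs edgeR called 0 (0%) between the controls, with 27 (6.72%) at an unadjusted p under 0.05, and DESeq2 called 16 (3.98%). MiR-23a overlapped between the controls (−0.19 ± 0.73), and its sign turned under another scaling (0.40 with totals of all named small RNAs), as did those of miR-23b-3p (0.14) and miR-23b-5p (0.19).

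The difference between the 2 effects, overexpression against 5NC minus knockdown against 3NC, was tested in the same fit. It was positive for all 6 members (53.2% of all miRNAs), with a median of 2.0 beside 0.37 over all miRNAs. Of all miRNAs edgeR called 0 (0%), with 48 (11.9%) at an unadjusted p under 0.05, and DESeq2 called 15 (3.73%), none of them a member. It was largest for miR-23b-5p (3.96 ± 1.60) and miR-23b-3p (2.60 ± 1.02), each with an unadjusted edgeR p under 0.05 (0.0396 and 0.0354), where 6.22% of all miRNAs were higher at that level, and an adjusted edgeR p of 0.36. This difference also holds the gap between the controls. 5NC lay below 3NC for all 6 members (log2 fold change −0.19 for miR-23a to −1.62 for miR-27a-3p). Without the controls, overexpression and knockdown averaged 6612 and 6233 CPM for miR-24-3p, and 14908 and 3532 CPM for miR-23b-3p. The part of the control gap was not tested.

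Levels in CPM depend on the scaling, and the ratio of a pair of members inside a library does not. MiR-23b-3p made up 69.2% and 66.5% of the reads of miR-23a and miR-23b-3p together in 3NC, 68.6% and 55.9% in 5NC, 45.4% and 46.9% with overexpression, and 36.0% and 37.9% with knockdown. With mature and hairpin entries summed, every control library thus had more miR-23b-3p than miR-23a, and every overexpression and knockdown library had less. As log2 ratios, overexpression lay below 5NC by 0.96 (−0.22 ± 0.06 against 0.73 ± 0.56, SD, n = 2), and knockdown below 3NC by 1.85 (−0.77 ± 0.08 against 1.08 ± 0.13). The binomial intervals of these shares were at most a few percentage points wide (36.0%, exact 95% interval 34.5% to 37.5%, and 37.9%, 35.9% to 39.9%, in the knockdown libraries). No p is given: for single values the exact permutation test was the one chosen, and with 2 libraries in either group it reaches 0.333 at the smallest. How many other pairs of miRNAs part the control libraries from the overexpression and knockdown libraries in this way was not counted.

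The ratio was also followed in the mature and hairpin entries apart. In mature entries alone miR-23b-3p made up 61.9% to 75.6% of the pair in the 4 control libraries and 45.2% to 53.2% in the 4 others, again without overlap. Both overexpression libraries (51.2% and 53.2%) and the second knockdown library (50.5%) then had more miR-23b-3p than miR-23a. In hairpin entries alone the shares overlapped, at 18.8% to 43.2% in the controls and 14.7% to 22.6% in the others. Every library, controls included, had less miR-23b-3p than miR-23a in those entries. For the level in knockdown against 3NC, the log2 fold change of miR-23b-3p was −3.40 ± 0.82 in mature and −0.54 ± 1.06 in hairpin entries (SE), with adjusted edgeR p of 0.45 and 0.84. The difference between both entries was not tested.

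The miR-27 pair was ordered in another way. MiR-27b-3p made up 36.7% and 37.2% of the reads of both miR-27 guides in 3NC, 46.3% and 54.7% in 5NC, 45.6% and 56.4% with overexpression, and 45.4% and 50.2% with knockdown. Here the 3NC libraries stood below all others, and 5NC, overexpression and knockdown overlapped. In log2 ratio knockdown lay above 3NC by 0.64 and 5NC lay above 3NC by 0.80. Both directions turned in mature entries alone, where the differences were −0.54 and −0.56. In those entries miR-27b-3p made up 58.0% and 59.4% of the pair in 3NC, 55.8% and 42.3% in 5NC, and 40.1% and 58.8% with knockdown, so that the 3NC and knockdown groups overlapped.

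**Figure D4:**
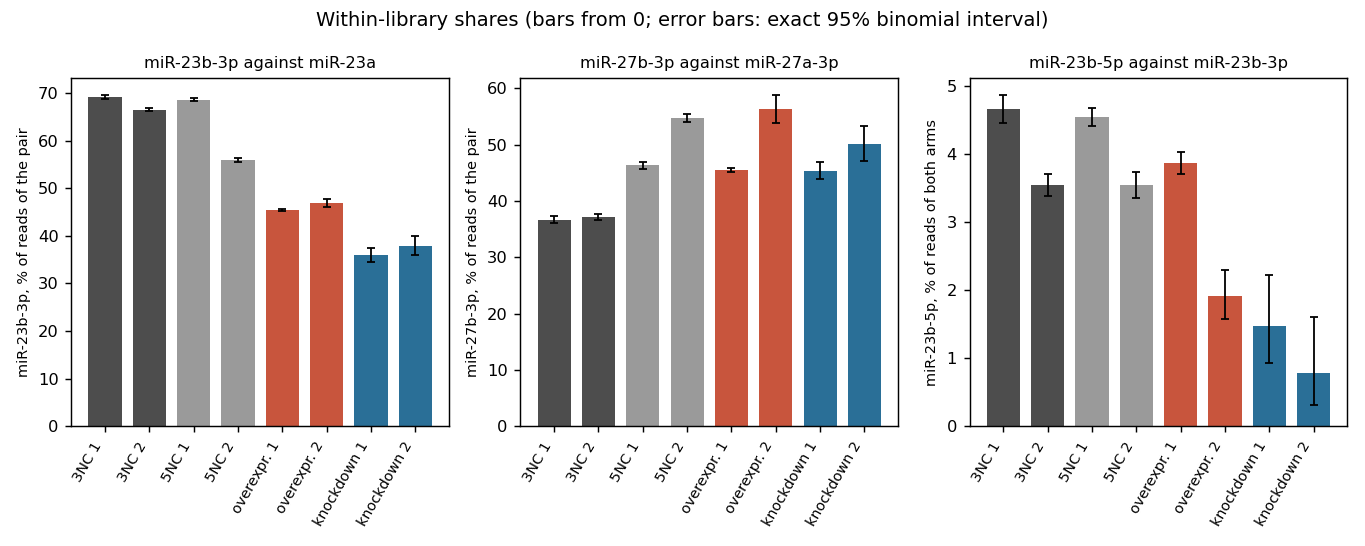
Share of reads in each of the 8 libraries, in percent with exact 95% binomial intervals, of miR-23b-3p in the miR-23 pair, of miR-27b-3p in the miR-27 pair and of the passenger arm miR-23b-5p in both miR-23b arms. The first share is 55.9% to 69.2% in the 4 control libraries and 36.0% to 46.9% in the 4 overexpression and knockdown libraries.

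Ratios between neighbours of a cluster varied widely over the libraries. MiR-23b-3p and miR-27b-3p are neighbours in the annotation, yet the former was read 5.33 and 3.83 times as often as the latter in 3NC, 8.47 and 3.54 times in 5NC, 1.76 and 6.45 times with overexpression, and 0.755 and 1.72 times with knockdown. Both knockdown ratios lay below those of the other 6 libraries, and the overexpression libraries spanned most of the range. Knockdown was also lowest in mature entries (1.41 and 2.75, below the 6 other libraries), but in hairpin entries knockdown (0.321 and 0.511) and 3NC (0.444 and 0.362) overlapped. MiR-23a to miR-27a-3p, neighbours in the other cluster, gave 1.38 and 1.14 in 3NC, 3.35 and 3.37 in 5NC, 1.77 and 9.45 with overexpression, and 1.12 and 2.84 with knockdown. With entries summed, both 5NC ratios lay above those of 3NC and knockdown, and both overexpression ratios above those of 3NC, while the other pairs of groups overlapped. In mature entries 5NC (6.37 and 4.68) also lay above 3NC (4.28 and 3.64) and knockdown (1.15 and 3.85). In hairpin entries 5NC (1.93 and 1.87) lay above 3NC (0.416 and 0.362) but within the range of knockdown (1.08 and 2.22). The ratio of miR-24-3p to the summed miR-23 and miR-27 guide reads was 0.147 and 0.239 in 3NC, 0.0817 and 0.129 in 5NC, 0.163 and 0.114 with overexpression, and 0.394 and 0.270 with knockdown. With entries summed both knockdown libraries lay above all 6 others. In mature entries they did so too (0.0643 and 0.0429, against 0.0129 to 0.0272 in the controls), but in hairpin entries, which hold most miR-24-3p reads, knockdown (0.749 and 0.596) lay within the range of 3NC (0.583 and 0.801).

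The passenger share of miR-23b was lowest in the knockdown libraries when mature and hairpin entries were summed. MiR-23b-5p made up 4.66% and 3.55% of the reads of both miR-23b arms in 3NC, 4.54% and 3.54% in 5NC, 3.87% and 1.91% with overexpression, and 1.48% and 0.787% with knockdown. The knockdown intervals (0.928% to 2.23% and 0.317% to 1.61%, exact 95% binomial) did not reach the control shares, but both overlapped that of the second overexpression library (1.58% to 2.30%). In mature entries alone knockdown overlapped 5NC (0.347% and 0.556%) but not 3NC (0.904% and 0.649%). The mature share was 0.547% in the first knockdown library (exact 95% interval 0.201% to 1.19%, which covers both 3NC values) and 0% in the second (0 of 762 reads, exact upper bound 0.483%). In hairpin entries alone it was 24.6% to 54.1% in the controls and 4.07% and 5.47% with knockdown. The 3 lowest summed shares belonged to the 3 libraries with the fewest miRNA reads.

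The other arms of the miR-27 and miR-24 hairpins, which were not among the 6, bear on the same point. MiR-27a-5p stood at 123 ± 11.7 CPM in 3NC and 21.0 ± 7.48 CPM with knockdown (log2 fold change −2.54 ± 1.28, edgeR adjusted p = 0.47), and miR-27b-5p at 105 ± 4.16 against 14.8 ± 12.1 CPM (−2.81 ± 1.37, 0.46). Knockdown values rest on 9 and 5 reads of the former and on 8 and 2 of the latter, where 2 reads lie under the floor of 3. As a share of both arms, miR-27b-5p had 1.90% and 1.36% in 3NC and 0.410% and 0.388% with knockdown, while miR-27a-5p had 1.18% and 1.05% against 0.383% and 0.971%. In the second knockdown library the interval of the miR-27a-5p share (0.316% to 2.25%) covered both 3NC values, so no difference was detectable there at this depth. MiR-24-5p was read at most 12 times in a library and was not tested.

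**Figure D5:**
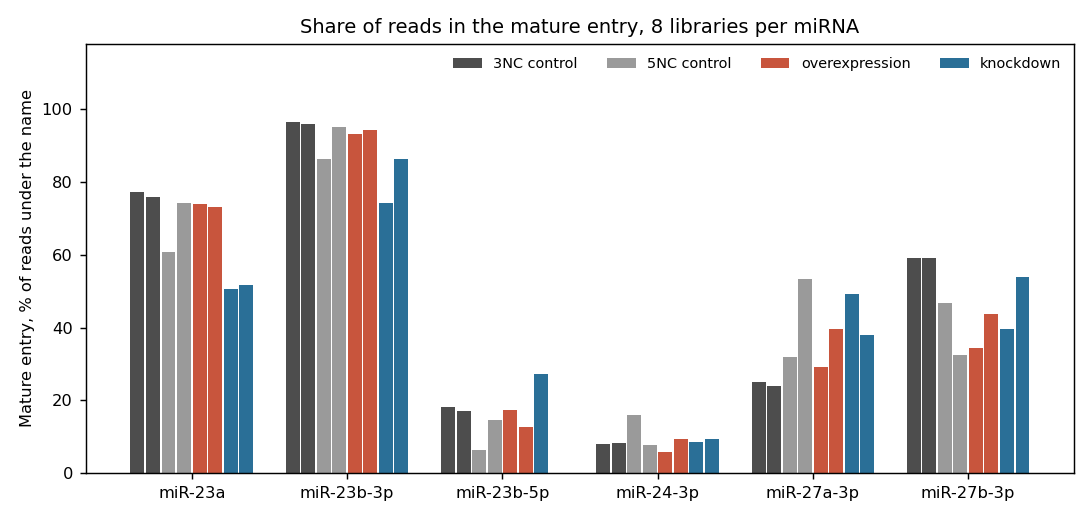
Percent of the reads under each name that stand in its mature entry, with 1 bar for each of the 8 libraries in the order 3NC, 5NC, overexpression, knockdown. MiR-23b-3p was read mostly as mature (74.3% to 96.6%), and miR-24-3p mostly as hairpin (5.83% to 16.1% mature).

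How reads were split between mature and hairpin entries differed by miRNA. Mature entries held 74.3% to 96.6% of the reads of miR-23b-3p and 50.7% to 77.3% of those of miR-23a, with the lowest shares of miR-23a in the knockdown libraries (50.7% and 51.6%). For miR-27a-3p the share was 23.9% to 53.5% and for miR-27b-3p 32.5% to 59.2%. MiR-24-3p was counted almost wholly as hairpin, with 5.83% to 16.1% mature, and its CPM therefore describes hairpin entries. MiR-23b-5p was also mostly hairpin, with 6.32% to 27.3% mature in the libraries other than the second knockdown library, where 0 of 7 reads were mature.

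Over the 8 libraries the members formed a pair and a trio by their levels. The 2 arms of miR-23b varied together (Pearson r = 0.99, Spearman rho = 0.98 of log2 CPM), and so did miR-24-3p, miR-27a-3p and miR-27b-3p (r = 0.91 to 0.96, rho = 0.90 to 0.95). MiR-23b-3p and miR-27b-3p, from one cluster, had r = 0.47 and rho = 0.48, and miR-23a and miR-27a-3p, from the other, r = 0.53 and rho = 0.50. For miR-23a both coefficients gave a different order. Pearson r was 0.81 and 0.82 with the miR-23b arms and 0.47 to 0.63 with the trio, whereas Spearman rho was 0.48 and 0.38 with the arms and 0.50 to 0.64 with the trio. These values describe 8 libraries that share their scaling factors and a wide spread of depth, and no p is given.

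By Pearson r, the 3 miRNAs most like each member were listed among the tested miRNAs other than the 6 members, with Spearman rho of 0.61 to 0.95 for the pairs named. MiR-23b-3p and miR-23b-5p were closest to miR-224-5p (r = 0.96 and 0.95), let-7f-3p (0.95 and 0.96) and miR-27b-5p (0.94 and 0.95), the last from the same cluster. MiR-27b-3p was closest to miR-21-5p (0.97), a guide abundant in many cultured cells, which also stood among the 3 closest of miR-27a-3p (0.94) and miR-24-3p (0.86). Let-7a-3p was in the first 3 of all of these (0.93, 0.92 and 0.87), with novel_mir388 for miR-27b-3p and miR-24-3p (0.91 and 0.90) and let-7i-5p for miR-27a-3p (0.94). MiR-23a was closest to miR-151-5p (0.96), miR-532-5p (0.93) and the predicted novel_mir469 (0.89). Both predicted miRNAs fell to 0 CPM in some libraries and reached at most 32.2 CPM (novel_mir388) and 124 CPM (novel_mir469). Their r therefore rests in part on libraries without reads.

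Other miRNAs tied to milk fat synthesis were counted beside the members, as a list of 22 names without the 6, of which 20 were matched and tested. In knockdown against 3NC 11 lay higher and 9 lower, and with overexpression 9 lay higher and 11 lower. By edgeR none passed the adjusted test in either comparison, and 0 and 2 respectively had an unadjusted p under 0.05. Their median log2 fold changes were 0.12 and −0.26, beside −0.13 and 0.19 over all miRNAs, and −1.27 and 0.60 for the 6 members. The most abundant was miR-26a-5p, which stood at 12170 and 18157 CPM in 3NC and 8856 and 14331 CPM with knockdown, overlapping groups. MiR-16a-5p had 7997 and 5345 CPM in 3NC and 386 and 779 CPM with knockdown (log2 fold change −3.52 ± 1.68, edgeR adjusted p = 0.45), and miR-16b-5p 3782 and 2805 against 3616 and 1194 CPM. MiR-145-5p, a miRNA of smooth muscle and fibroblasts, stood at 1136 and 612 CPM in 3NC and at 10174 and 9605 CPM with knockdown (3.50 ± 1.71, edgeR adjusted p = 0.46).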

How the data were processed

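Small RNA was sequenced from 8 libraries, and the authors deposited 1 table with a read count and a TPM value per feature and library, per the file headers. Which aligner, counting rule and genome build were used is not given in the sources at hand. The deposited counts were whole numbers. The deposited TPM values equalled the count per 1000000 of the column total within 0.0141% for features of at least 1000 reads, with a count of 0 written as 0.001, and served only for this check. The 4 summed classes without a feature name (44.3% to 63.1% of reads) stayed out. Mature and hairpin entries were summed per name, and a read entered in both would be summed more than once, which no source settles.

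The tests on counts used edgeR 4.0.16 under R 4.3.3 (TMM, filterByExpr with a minimum count of 10, robust quasi-likelihood, all 8 libraries, 4 residual degrees of freedom). P-values were two-sided, and those of edgeR were adjusted over 402 miRNAs (threshold 0.05). The SE is the absolute log2 fold change divided by the square root of F. The common dispersion was 1.43. DESeq2 1.42.0 was an alternative, beside other scalings, filters, entries, a replicate block and leaving out each library. By its own filter DESeq2 gave no adjusted p to 78 to 156 of the 402, depending on the comparison (94 in knockdown against 3NC). These counted as not called, and the DESeq2 percentages are of all 402. The edgeR fit was run on simulated data at dispersions of 0.05 and of 1.43, the value of these data. What it recovered at 1.43 is not given here. A check was set only at 0.05. That check does not show what the test can find at 1.43. Intervals are exact binomial. They and the floor of 3 reads cover counting error alone, since PCR copies are not separate molecules. The members and lists were chosen with earlier results of these data known. The text names all 6 members, the other arms of their hairpins, the 3 tested miRNAs outside the 6 with the highest Pearson r of log2(CPM + 1) to each member, and the 4 most abundant of the milk fat list. The prefix chi- is left out.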

Additional observations from a re-analysis of the deposited data

How the results depend on the processing

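None of the 6 members passed the adjusted test under any edgeR alternative, while DESeq2 called miR-23b-3p (log2 fold change −2.80) and miR-23b-5p (−4.70) in knockdown against 3NC. Of 450 values of members under alternatives, 427 kept direction and side of the threshold, 21 reversed and these 2 passed. Calls over all miRNAs, 0 in each edgeR comparison, were 27 for overexpression, 25 for knockdown, 16 between controls and 15 for the difference of effects with DESeq2, 5, 5, 2 and 5 with no filter on low counts, and 1 for overexpression and 3 for the difference with totals of all named small RNAs. Leaving out each library gave 0 to 30, 0 to 0, 0 to 20 and 0 to 42 calls, and the highest came without the second 5NC library. Without the first overexpression library signs reversed, so that the ranges were −0.30 to 1.36 for miR-24-3p, −1.27 to 1.85 for miR-27a-3p and −0.98 to 1.52 for miR-27b-3p with overexpression, and −0.16 to 2.40 for miR-27b-3p in the difference. With miRNA totals the knockdown values were 0.48 for miR-23a, 0.70 for miR-24-3p, 0.20 for miR-27a-3p and 0.77 for miR-27b-3p, and the difference for miR-27b-3p was −0.13. With totals of all named small RNAs miR-23a was −0.13 with overexpression, and between controls miR-23a was 0.40, miR-23b-3p 0.14 and miR-23b-5p 0.19. Mature entries alone gave 0.034 for miR-23b-5p with overexpression. Hairpin entries alone gave 0.35 for miR-23a and 1.09 for miR-23b-3p between controls and −0.57 for miR-23b-3p in the difference. A fit of only the groups compared gave 0.16 for miR-23a between controls. Leaving out the first 5NC and second overexpression libraries together, an alternative chosen after seeing the data, gave 0.18 for miR-23b-3p and 0.31 for miR-23b-5p with overexpression and 0.11 for miR-23a between controls. The log2 ratio of miR-23b-3p to miR-23a in knockdown against 3NC was −1.53 in mature entries, and leaving out each library kept it between −1.94 and −1.76 (−1.35 to −0.56 with overexpression and −0.74 to 0.05 between controls). The cause of these changes was not tested. With the replicate number as a block, miR-23b-3p had −3.07 and miR-23b-5p −5.03 in knockdown (edgeR adjusted p = 0.46 for both), and 0 miRNAs were called in each comparison. Deviations of same-numbered libraries correlated between −0.07 and 0.29 over miRNAs, and nothing in the labels says that a number marks a shared culture. The knockdown libraries, with 177449 and 122435 miRNA reads, limit the precision of miR-23b-5p most.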

Other observations

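Precursor families of these miRNAs also stand in the table as Rfam entries, outside the comparisons above. The mir-23 family entry held 5075 and 4347 reads per 1000000 miRNA reads in 3NC, 5673 and 3463 in 5NC, 3040 and 3635 with overexpression, and 4176 and 3880 with knockdown. The knockdown libraries lay below both 3NC libraries and within the range of 5NC. The mir-24 family entry held 7181 and 7821 in 3NC, 4382 and 3830 in 5NC, 7689 and 3900 with overexpression, and 14793 and 6428 with knockdown. The mir-27 family entry held 1743 and 1849 in 3NC, 726 and 1039 in 5NC, 2387 and 595 with overexpression, and 4283 and 3798 with knockdown, where both libraries lay above all 6 others. These values carry no TMM factor and were not tested, and whether their reads are also counted under the miRNA names is not given. With the same miRNA totals the median log2 fold change over all 402 tested miRNAs was 1.40 in knockdown against 3NC. Most miRNAs thus lay higher with knockdown on this scaling, and how many lay above all other libraries was not counted.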
